A study of Homo sapiens with 6 samples.

Results

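The constitutive proteasome genes encode the parts of the standard proteasome, here taken as every gene of the deposited table whose symbol is Psma, Psmb, Psmc, Psmd, Psme, Psmf or Psmg followed by a number, other than the immunoproteasome genes Psmb8, Psmb9 and Psmb10. This gave 44 of the 22989 genes of the table: 15 of the 20S core, 17 of the 19S cap, 4 activators, and 8 assembly factors and the inhibitor. RNA was sequenced in 6 libraries labelled as PTX-resistant breast cancer stem cells (BCSC) of MDA-MB-231, a human triple-negative breast cancer line. PTX is paclitaxel, a drug that stabilizes microtubules, and BCSC were sorted in the study by flow cytometry for high aldehyde dehydrogenase activity (ALDH+). The 3 LINC00115 KD libraries come from cells with a short hairpin RNA against the long noncoding RNA LINC00115, and the 3 controls carry the genotype label WT; for other knockdown experiments the study's legends name a control hairpin. By the labels and the study's account, all 6 libraries share the cell line, the drug-resistant state and the sort. For this RNA-seq comparison a legend of the study names the hairpin sh115-2, while the labels describe the KD libraries as sh115-1, sh115-2 and sh115-3. The sources do not state whether the libraries of a group are separate cultures, so the p-values measure the spread between these libraries, which may be technical.

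The labels name a human line, but the gene symbols of the table are in mouse style, with 4648 names that begin with Gm and 1129 that end in Rik. The table also lists Psme2b, a copy of Psme2 known from the mouse. Whether the reads come from human or mouse RNA was not tested, and the symbols are given here as the table gives them. LINC00115 is under no name in the table, so the knockdown could not be checked and each direction below rests on the labels. Vim (mean 3418 normalized CPM in WT), Cd44 (911), Krt8 (472) and Krt18 (129), which the line is known to express, were all detected. Of the receptors that a triple-negative line lacks, Erbb2 was at 17.0 normalized CPM in WT and 27.6 in LINC00115 KD (adjusted p = 1.19e-09 by edgeR), Esr1 at 0.698 and 2.56 (adjusted p = 5.22e-06), and Pgr had at most 3 counts in any library. Aldh1a1 was at 0.327 normalized CPM in WT and 1.16 in LINC00115 KD, and Aldh1a3 had at most 4 counts in any library, although the study describes BCSC as sorted for ALDH activity. Library totals ran from 36979221 to 38799331 counts, with a count for 17271 to 18116 genes. Markers of other tissues moved with the groups as well. Of the 15 leukocyte markers listed, 14 were in the table. They summed to between 72.7 and 86.9 normalized CPM in WT and between 145 and 161 in LINC00115 KD. The groups did not overlap for 6 of them, 5 higher in LINC00115 KD and 1 lower. Of all genes tested, 37.8% were higher in every KD library and 37.8% lower in every one. The defining markers Cd3e and Csf1r had at most 3 counts in every library. The 11 lung markers summed to between 1.73 and 2.12 in WT and between 75.2 and 86.5 in LINC00115 KD, with all 11 higher in every KD library and 6 of them at 0 in the WT libraries. The 10 kidney markers summed to between 16.7 and 19.5 in WT and between 41.4 and 45.6 in LINC00115 KD, with 7 higher and 1 lower in every KD library and 5 of the 10 at 0 in the WT libraries. Their part in the results below was not tested. In bulk RNA, fewer cells of a type and less RNA per cell cannot be told apart.

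The proteasome is the protease that degrades most ubiquitin-tagged proteins of the cytosol and nucleus. Its 20S core is a barrel of stacked rings, with outer alpha rings that gate the entry and inner beta rings that hold the proteolytic sites, and the 19S cap binds ubiquitin chains, removes them and threads the unfolded substrate into the barrel. The PA28 complexes and PA200 bind the same end of the barrel without using ubiquitin or ATP. Interferon signalling is known to switch on alternative catalytic subunits, encoded by Psmb8, Psmb9 and Psmb10, and PA28 alpha and beta, encoded by Psme1 and Psme2, which together favour the production of peptides for MHC class I. The constitutive genes are known instead to be controlled together by the transcription factor encoded by Nfe2l1.

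The promoters of PSME1, PSME2 and PSME3, the genes of PA28 alpha, beta and gamma, are shown because they were the activators that rose, and that of PSMB10, which encodes the immunoproteasome subunit with the trypsin-like site, to set beside them. They are human RefSeq sequences of GRCh38.p14, matched by symbol without regard to case, while the table's symbols are in mouse style. Each begins 250 bases before the start of the gene and ends with base 30 after it, is read 5′ to 3′ on the strand of the gene, and has the matches to the motifs searched in capitals. PSME1 lies at chr14:24135944-24136223 on the plus strand, PSME2 at chr14:24146581-24146860 on the minus strand, PSME3 at chr17:42833147-42833426 on the plus strand and PSMB10 at chr16:67936821-67937100 on the minus strand.
PSME1: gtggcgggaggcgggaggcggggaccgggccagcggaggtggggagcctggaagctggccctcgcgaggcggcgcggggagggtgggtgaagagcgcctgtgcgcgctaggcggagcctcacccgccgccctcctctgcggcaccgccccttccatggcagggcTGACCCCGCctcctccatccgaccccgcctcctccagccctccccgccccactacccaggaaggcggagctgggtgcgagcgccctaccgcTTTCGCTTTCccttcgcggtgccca
PSME2: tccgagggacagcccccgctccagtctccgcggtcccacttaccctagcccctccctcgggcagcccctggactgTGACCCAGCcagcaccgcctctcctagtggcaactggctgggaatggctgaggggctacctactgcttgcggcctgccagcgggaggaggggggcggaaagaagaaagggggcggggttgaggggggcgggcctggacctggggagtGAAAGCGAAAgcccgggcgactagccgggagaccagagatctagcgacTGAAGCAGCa
PSME3: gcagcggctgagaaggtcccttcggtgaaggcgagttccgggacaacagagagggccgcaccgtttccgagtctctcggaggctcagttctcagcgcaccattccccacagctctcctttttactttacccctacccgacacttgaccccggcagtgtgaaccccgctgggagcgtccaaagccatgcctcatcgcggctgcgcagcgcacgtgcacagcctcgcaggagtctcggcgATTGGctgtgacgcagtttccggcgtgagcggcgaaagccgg
PSMB10: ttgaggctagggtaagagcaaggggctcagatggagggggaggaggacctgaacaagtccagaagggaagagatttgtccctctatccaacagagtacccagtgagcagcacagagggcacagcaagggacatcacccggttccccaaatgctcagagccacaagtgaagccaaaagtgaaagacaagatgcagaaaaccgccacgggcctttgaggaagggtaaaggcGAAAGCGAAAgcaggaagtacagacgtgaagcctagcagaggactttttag

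Both strands of the whole 300-base windows, up to 50 bases after the start, were searched for 4 sets of letters: CCAAT (the NF-Y box), TGANNNNGC (the core of the antioxidant response element, read by the factors of Nfe2l1 and Nfe2l2), GGAAGTG (an ETS-like site), and the core of the interferon-stimulated response element (GAAA, any pair of bases, then GAAA). PSME1 held the interferon core on its reverse strand at bases 6 to 15 after the start, and the antioxidant core 86 to 78 bases before it. PSME2 held the interferon core 28 to 19 bases before the start, and the antioxidant core both 175 to 167 bases before and 21 to 29 bases after it. PSME3 held neither, and its only match was the NF-Y box on the reverse strand, 12 to 8 bases before the start. PSMB10 held the interferon core 21 to 12 bases before the start. Of the 4 immunoproteasome windows 2 held it, those of PSMB10 and PSMB8, while PSMB9, the gene of this set that rose most, had no match to it in its window. No matches overlapped in the 4 windows shown above, those of PSME1, PSME2, PSME3 and PSMB10. Of the 44 members, 38 had a RefSeq window, 46 windows in all, and the other 6 were Psma7, Psmb1, Psmb6, Psmb7, Psmd4 and Psmg3. The interferon core was in 10.9% of the members' windows and in 3.57% of all 35116 windows of the table. Besides PSME1 and PSME2, it was found in the windows of PSMA4, PSMB4 and PSMG4, and in 0 of the 18 windows of the 19S cap. The antioxidant core was in 60.9% of the members' windows against 41.8% of all, the NF-Y box in 39.1% against 34.6%, and the ETS-like site in 21.7% against 11.2%. These are matches of letters in the named windows, not sites shown to be used.

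Across the whole set, LINC00115 KD libraries differed from WT in direction from gene to gene and by less than 2-fold. Of the 43 members tested, 20 rose, 9 fell and 14 did not pass, where rose and fell mean an adjusted p under 0.05 in the quasi-likelihood test of edgeR, adjusted by Benjamini-Hochberg across all 13497 genes (3 libraries against 3). Over all genes tested, 36.7% rose and 36.7% fell, so the members that rose, 46.5%, stood above that share and the members that fell, 20.9%, below it. Psma8, the testis form of an alpha subunit, had 1 count in WT replicate 1 and 0 in the other 5 libraries, which allows up to 3 counts in each, and was not tested. Counts of the tested members lay between 390 and 21753 per library. The study's second threshold, a fold change over 2, was passed by 0 of the 43 members in edgeR, at an adjusted or an unadjusted p under 0.05, and by 1, Psmg3, in DESeq2. Over all genes 10.2% were more than 2-fold higher and 9.98% more than 2-fold lower.

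**Figure D1:**
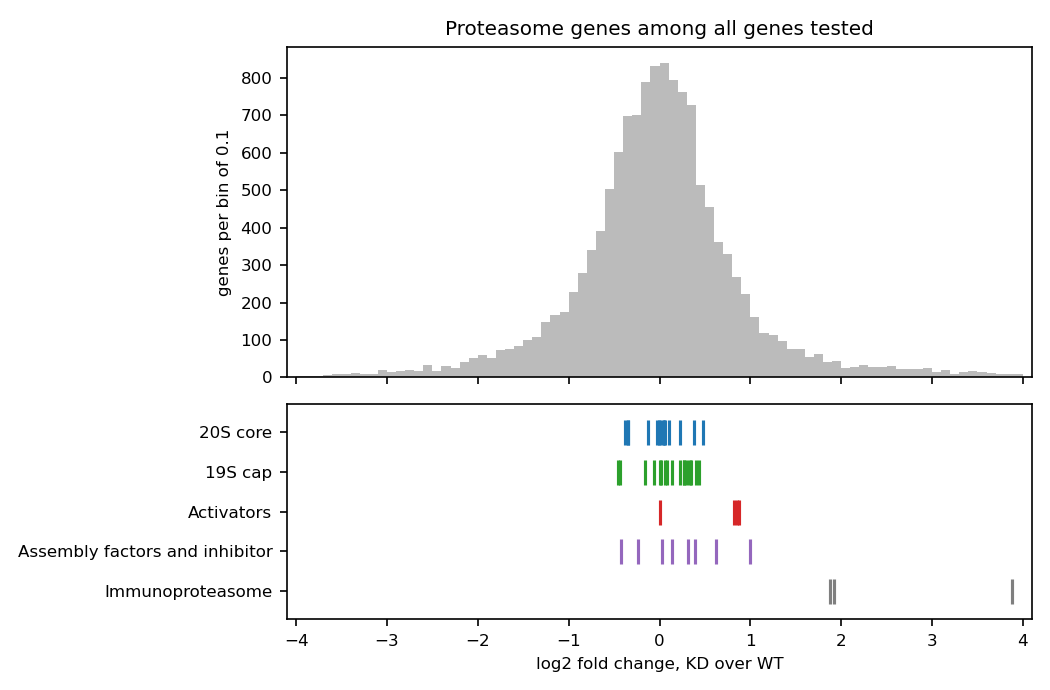
Histogram of the fitted log2 fold change, LINC00115 KD over WT, of all 13497 genes tested (upper panel, genes per bin of 0.1; 232 genes lie beyond 4 either way and are not drawn), with 1 tick per gene for the proteasome groups below it. The 43 members lie between -0.46 and 1.00, while the 3 immunoproteasome genes lie between 1.87 and 3.88.

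The members' median log2 fold change was 0.08, with a range of -0.46 to 1.00, beside a median of -0.01 over all genes. Their median absolute log2 change was 0.27, against 0.45 over all genes, and 38 of 43 members (88.4%) lay within 0.5 of 0, against 53.8% of all genes. Library by library, the KD values of 22 members all lay above the WT values, those of 8 all lay below, and 13 overlapped. Over all genes 37.8% were higher in every KD library and 37.8% lower in every one. WT replicate 1 had the lowest WT value for 36 of the 43 members, and the members' summed level was 5800 normalized CPM there, against 6120 and 6128 in the other WT libraries and 6392 to 6471 in LINC00115 KD. Without WT replicate 1, 19 members rose and 9 fell, and 1 gene, Psmg3, passed the fold change of 2. Within a group the members' values varied little, with a median coefficient of variation of 4.13% in WT and 2.24% in LINC00115 KD.

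**Figure D2:**
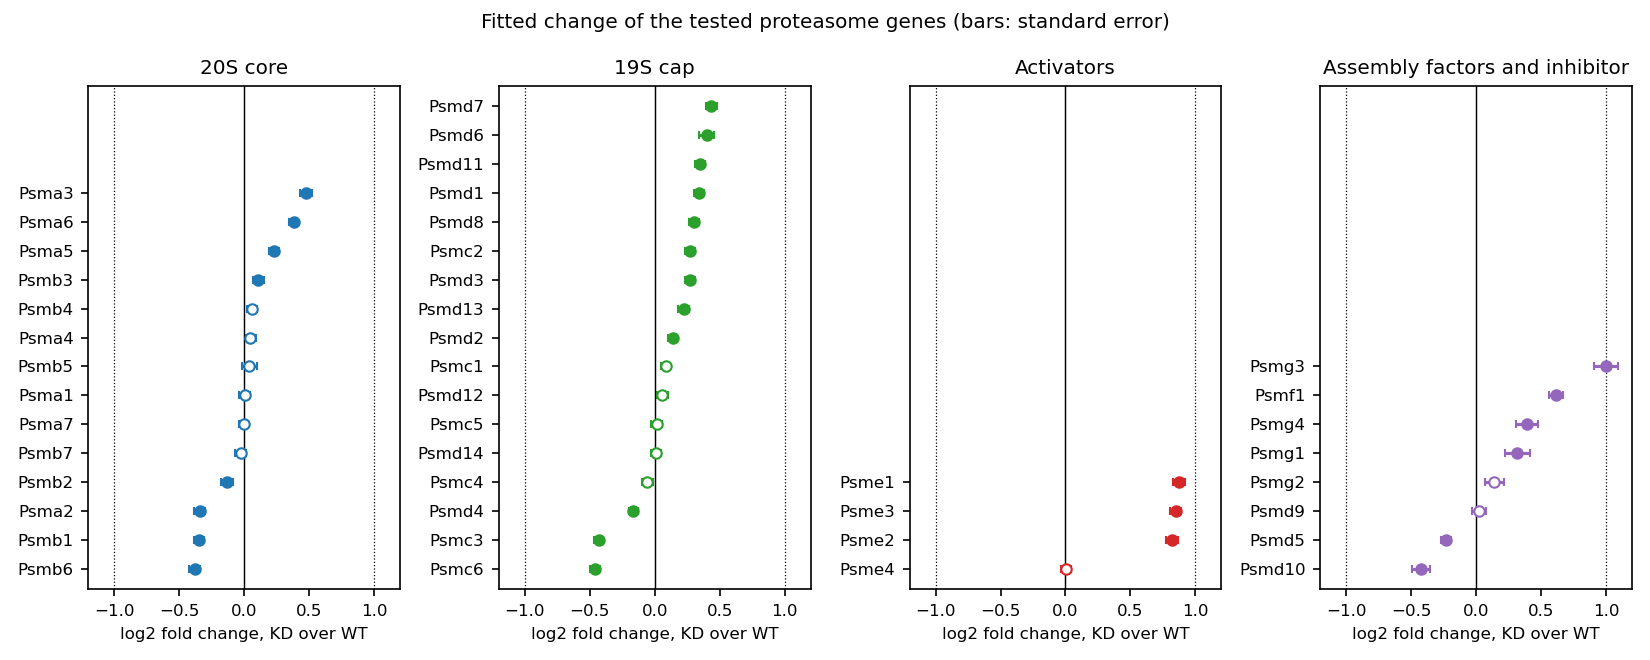
Fitted log2 fold change, LINC00115 KD over WT, of the 43 tested proteasome genes in their 4 groups (points; bars are the standard error). Filled points passed an adjusted p under 0.05, open points did not, and the dotted lines mark a fold change of 2; 3 of the 4 activators lie between 0.82 and 0.87, and Psmg3 lies at the line.

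The 20S core changed in both directions and its sum hardly moved. Of its 14 tested genes 4 rose, 4 fell and 6 did not pass, with a median log2 fold change of 0.02 that turned to -0.02 both without WT replicate 1 and under upper quartile scaling. The core's summed level lay between 1966 and 2083 normalized CPM in WT and between 2021 and 2067 in LINC00115 KD, so the groups overlapped. Of the 7 tested genes of the alpha ring, which gates the barrel, 3 rose (42.9%) and 1 fell (14.3%). In the beta ring 1 of 7 rose (14.3%) and 3 fell (42.9%). The share over all genes was 36.7% each way, and the difference between the rings was not tested.

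The alpha ring genes that changed did so in both directions. Psma3 measured 80.3, 84.8 and 85.8 normalized CPM in the WT libraries and 118, 117 and 114 in the LINC00115 KD libraries, the highest rise of the core (log2 fold change 0.48, SE 0.044, adjusted p = 8.48e-12). Psma6 measured 170, 175 and 177 in WT and 228, 229 and 222 in LINC00115 KD (log2 fold change 0.38, SE 0.036, adjusted p = 2.04e-11). In both genes every KD library lay above every WT library. Psma5 rose as well (log2 fold change 0.23, adjusted p = 6.51e-06). Psma2 fell, with 176 ± 6.44 normalized CPM in WT and 139 ± 6.34 in LINC00115 KD (SD, n = 3; log2 fold change -0.34, SE 0.041, adjusted p = 3.20e-09). For the other 3, Psma1, Psma4 and Psma7, the log2 fold changes were 0.0041, 0.048 and -0.0030, and none passed. The signs of Psma1 and Psma7 flipped under other scalings.

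The 3 constitutive active-site subunits did not move together. Psmb6, the subunit with the caspase-like site, measured 109, 113 and 113 normalized CPM in WT and 84.0, 87.9 and 85.9 in LINC00115 KD. Every KD library lay below every WT library, and the gene had the largest fall of the core (log2 fold change -0.38, SE 0.043, adjusted p = 1.20e-09). Psmb7, with the trypsin-like site, measured 188, 200.2 and 204 in WT and 187, 195 and 199 in LINC00115 KD, and the groups overlapped (log2 fold change -0.03, SE 0.039, adjusted p = 0.528). Psmb5, with the chymotrypsin-like site, measured 47.8, 54.1 and 54.2 in WT and 52.1, 51.4 and 57.0 in LINC00115 KD, again with overlap (log2 fold change 0.04, SE 0.059, adjusted p = 0.545). The direction of Psmb5 flipped under upper quartile scaling, and the directions of both genes flipped when single libraries were left out.

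Of the beta subunits without an active site, Psmb1 fell about as far as Psmb6. It measured 187, 198 and 195 normalized CPM in WT and 148, 154 and 154 in LINC00115 KD, with no overlap (log2 fold change -0.34, SE 0.038, adjusted p = 6.62e-10). Psmb2 fell by a smaller amount, with overlapping groups (log2 fold change -0.13, SE 0.047, adjusted p = 0.0140). That call was lost without WT replicate 2 (adjusted p = 0.0666), WT replicate 3 (0.0710), LINC00115 KD replicate 1 (0.122) or LINC00115 KD replicate 3 (0.0507). Psmb3 rose slightly (log2 fold change 0.11, SE 0.041, adjusted p = 0.0179), which was lost under upper quartile scaling (adjusted p = 0.132), without WT replicate 1 (0.0803) and without LINC00115 KD replicate 3 (0.0637). Psmb4 had a log2 fold change of 0.06 (adjusted p = 0.136), and passed without LINC00115 KD replicate 2 (0.0468).

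**Figure D3:**
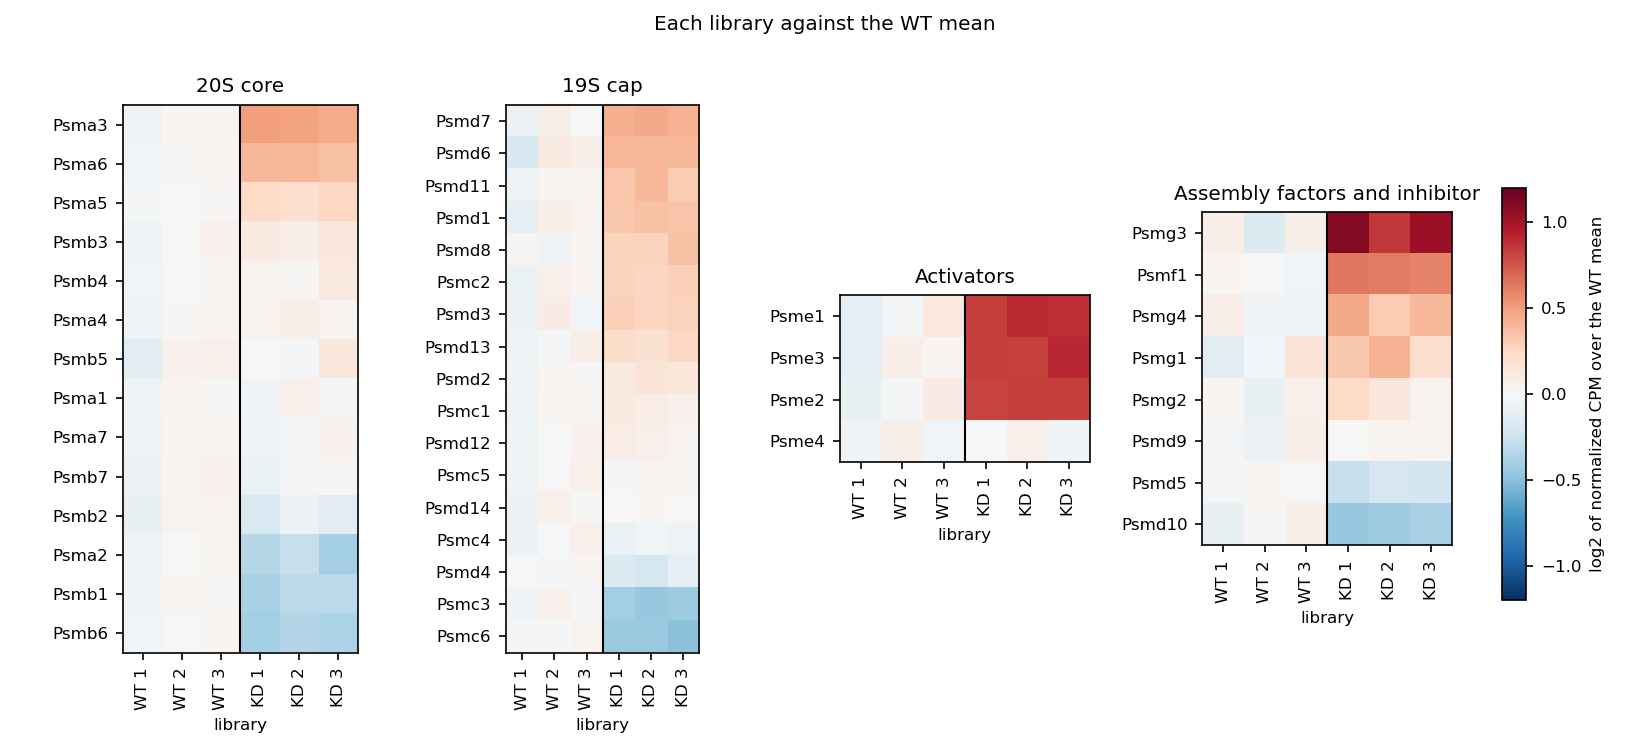
Colour map of each library (columns) for the 43 tested proteasome genes (rows, by group), as log2 of normalized CPM over the mean of the 3 WT libraries. The KD columns are red across most of the lid genes and 3 of the 4 activators and blue for Psmb6, Psmb1, Psma2, Psmc3, Psmc6, Psmd4, Psmd5 and Psmd10, and WT 1 is slightly blue in most rows.

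In the 19S cap 9 of 17 genes rose, 3 fell and 5 did not pass, with a median log2 fold change of 0.14. Its summed level lay between 3049 and 3232 normalized CPM in WT and between 3354 and 3377 in LINC00115 KD, 6.39% higher with no overlap. Over all genes 36.7% rose and 36.7% fell. In the lid, which carries the deubiquitinating subunit, 6 of the 8 genes under the rule rose and 0 fell. The same held at an unadjusted p under 0.05 in edgeR and in DESeq2, and their median log2 fold change was 0.28. Sem1, a further lid subunit whose symbol is outside the rule, fell (log2 fold change -0.48, adjusted p = 3.92e-11 by edgeR). It is not in these counts or in the sums. In the base, which holds the ring of ATPases and the ubiquitin receptors, 3 of 9 rose and 3 fell (33.3% each, near the share over all genes), with a median of 0.01. The difference between lid and base was not tested.

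Psmd7 and Psmd6 had the highest rises of the cap, and both encode lid subunits. Psmd7, the partner of the deubiquitinating subunit, measured 127, 140.1 and 133 normalized CPM in WT and 180.0, 183 and 179 in LINC00115 KD (log2 fold change 0.44, SE 0.040, adjusted p = 7.15e-12). Psmd6 measured 58.8, 72.7 and 70.5 in WT and 88.7, 88.7 and 88.9 in LINC00115 KD (log2 fold change 0.40, SE 0.056, adjusted p = 9.93e-08). Neither gene overlapped between groups, and Psmd6 had the widest spread of the members in WT, with a coefficient of variation of 11.1%. Without WT replicate 1, the low library, its log2 fold change was 0.31 (adjusted p = 4.50e-07). The scaffold subunits of the lid Psmd11 (log2 fold change 0.35), Psmd8 (0.30), Psmd3 (0.27) and Psmd13 (0.22) rose as well, with adjusted p between 9.32e-10 and 5.41e-05. Psmd14, the deubiquitinating subunit itself, measured 153 ± 6.99 in WT and 154 ± 1.70 in LINC00115 KD (SD, n = 3 each; log2 fold change 0.0071, adjusted p = 0.877), with a sign that flipped under other scalings. Psmd12 had a log2 fold change of 0.06 (adjusted p = 0.172). The summed level of the 8 lid genes under the rule was 1070 to 1147 normalized CPM in WT and 1324 to 1329 in LINC00115 KD, 18.9% higher.

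The ATPases, which unfold substrates, held the 2 deepest falls of all members. Psmc6 measured 220, 222 and 230.4 normalized CPM in WT and 165, 165 and 159 in LINC00115 KD (log2 fold change -0.46, SE 0.037, adjusted p = 2.81e-13). Psmc3 measured 301, 322 and 307 in WT and 234, 225 and 230.2 in LINC00115 KD (log2 fold change -0.43, SE 0.035, adjusted p = 4.48e-13). In both, every KD library lay below every WT library by a margin wider than the spread of either group. Psmc2 rose in the same ring (log2 fold change 0.27, SE 0.039, adjusted p = 1.79e-07). Psmc1, Psmc4 and Psmc5 had log2 fold changes of 0.08, -0.06 and 0.01, with adjusted p of 0.0527, 0.220 and 0.756. Psmc1 passed without WT replicate 2 (adjusted p = 0.0444), WT replicate 3 (0.0346) or LINC00115 KD replicate 3 (0.0438), with DESeq2's size factors in edgeR (0.0382), with at least 10 counts in every sample (0.0438) and in DESeq2 (0.0454). Psmc4 passed, as lower, under upper quartile scaling (0.0335). The sign of Psmc5 flipped under other scalings. The 6 ATPases summed to between 1073 and 1133 normalized CPM in WT and between 1006 and 1013 in LINC00115 KD, 9.16% lower. The 3 other base genes all passed. Psmd1 and Psmd2, the large scaffold subunits, rose (log2 fold change 0.34, adjusted p = 1.26e-09, and 0.14, adjusted p = 0.000256). Psmd4, a ubiquitin receptor, fell (log2 fold change -0.16, adjusted p = 0.000224).

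The PA28 genes rose by nearly the same amount, and the 1 other activator did not pass. Psme1, which encodes PA28 alpha, measured 74.1, 78.4 and 87.3 normalized CPM in WT and 142, 149 and 148 in LINC00115 KD, a 1.83-fold rise (log2 fold change 0.87, SE 0.048, adjusted p = 9.54e-18). Psme2, its partner PA28 beta, measured 56.2, 59.1 and 63.7 in WT and 105, 106 and 106 in LINC00115 KD, 1.77-fold (log2 fold change 0.82, SE 0.049, adjusted p = 7.56e-17). For both genes the lowest KD library stood well above the highest WT library, and the ratio of Psme1 to Psme2 counts stayed near its WT value, at 1.32 to 1.37 in WT and 1.36 to 1.41 in LINC00115 KD. Psme3, which encodes PA28 gamma, a nuclear activator, measured 105, 119 and 115 in WT and 200.5, 199 and 211 in LINC00115 KD, 1.80-fold (log2 fold change 0.85, SE 0.043, adjusted p = 8.32e-19). All 3 were above every WT library in every KD library.

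Psme4, which encodes PA200, a nuclear activator known for its role in histone turnover, measured 199, 215 and 200.1 normalized CPM in WT and 204, 214 and 198 in LINC00115 KD. The groups overlapped fully (log2 fold change 0.0034, SE 0.039, adjusted p = 0.942), with a sign that flipped under upper quartile and library-size scaling. The ratio of Psme3 to Psme4 counts was accordingly 0.529 to 0.574 in WT and 0.934 to 1.07 in LINC00115 KD. Psme2b, named after its values were seen, rose from 20.7 ± 1.75 to 44.2 ± 3.20 normalized CPM (SD, n = 3 each; log2 fold change 1.09, adjusted p = 1.99e-15). Since it is a near copy of Psme2 and the handling of reads with several matches is not given in the sources used here, the split of counts between them is uncertain. Psme1, Psme2 and Psme3 moved beside the interferon response list, of which 18 of the 20 genes were in the table. Its summed level lay between 1111 and 1200 normalized CPM in WT and between 5613 and 5829 in LINC00115 KD. All 18 rose, against 36.7% of all genes, and 16 rose past a fold change of 2, against 10.2% of all genes. The list was chosen with earlier results of these data known, so these counts are a description only. The list's median log2 fold change was 2.37. Its largest change was that of Rsad2, an antiviral enzyme (log2 fold change 5.25, SE 0.052, adjusted p = 2.06e-39). The part of interferon signalling in the PA28 values was not tested.

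**Figure D4:**
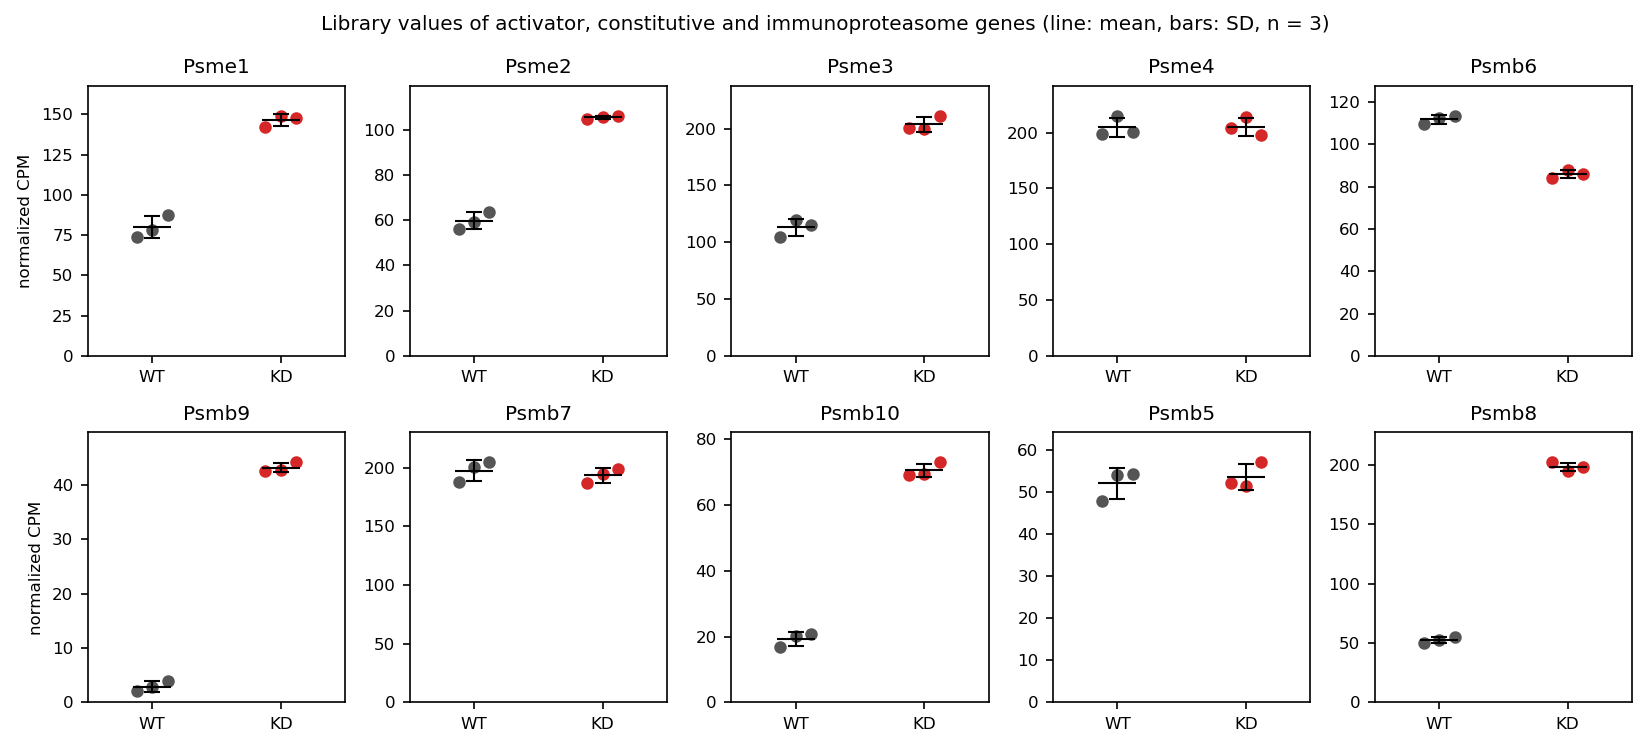
Normalized CPM in each of the 3 WT (grey) and 3 LINC00115 KD (red) libraries, each panel with its own axis from 0, for the 4 activators and for each constitutive active-site gene beside its immunoproteasome counterpart (horizontal line, mean; bars, SD; n = 3). The KD points stand apart above WT for Psme1, Psme2, Psme3, Psmb8, Psmb9 and Psmb10, below WT for Psmb6, and among the WT points for Psme4, Psmb5 and Psmb7.

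Among the 8 assembly factors and the inhibitor, 4 rose (50%), 2 fell (25%) and 2 did not pass, against 36.7% each way over all genes. Of the 4 chaperones of the 20S core, 3 rose and 0 fell, also at an unadjusted p under 0.05 and in DESeq2. These groups are small and were not tested as sets. Psmg3 measured 12.3, 10.3 and 12.1 normalized CPM in WT and 24.9, 20.9 and 23.6 in LINC00115 KD, with no overlap, and had the highest rise of the members (log2 fold change 0.999, SE 0.094, adjusted p = 1.48e-11). It therefore lay just inside a fold change of 2 in edgeR, and just past it in DESeq2 (log2 fold change 1.01), without WT replicate 1 (1.04), without WT replicate 3 (1.04) and without LINC00115 KD replicate 2 (1.08). Its partner Psmg4 rose too (log2 fold change 0.39, SE 0.085, adjusted p = 0.000120). Of the other dimer, Psmg1 rose (log2 fold change 0.32, SE 0.096, adjusted p = 0.00376) and Psmg2 had a log2 fold change of 0.14 (adjusted p = 0.0880), which passed without LINC00115 KD replicate 3 (adjusted p = 0.0388). Pomp, which encodes the maturation factor of the core and whose symbol is outside the rule, measured 88.8 ± 4.63 in WT and 92.9 ± 1.14 in LINC00115 KD (SD, n = 3 each; log2 fold change 0.07, adjusted p = 0.202).

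Of the 3 chaperones of the 19S base, 2 fell and 0 rose, also at an unadjusted p under 0.05 and in DESeq2. The share over all genes was 36.7% each way, and the difference from the chaperones of the 20S core was not tested. Psmd10, known as gankyrin, measured 35.3, 37.8 and 39.5 normalized CPM in WT and 27.5, 27.9 and 28.6 in LINC00115 KD (log2 fold change -0.42, SE 0.067, adjusted p = 8.05e-07). Psmd5 measured 159, 165 and 162 in WT and 134, 140.4 and 138 in LINC00115 KD (log2 fold change -0.23, SE 0.039, adjusted p = 1.81e-06). Both were below every WT library in every KD library, and Psmd9 was not past the threshold (log2 fold change 0.02, adjusted p = 0.726), with a sign that flipped under upper quartile scaling. Psmf1, which encodes PI31, a protein that binds the 20S core and inhibits it in vitro, measured 40.0, 39.5 and 38.4 in WT and 60.9, 60.6 and 59.3 in LINC00115 KD. It was 1.53-fold higher (log2 fold change 0.62, SE 0.055, adjusted p = 3.33e-12), and no KD library overlapped a WT library.

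The immunoproteasome genes, which replace the 3 constitutive active-site subunits, rose by far more than any member. Psmb9, the counterpart of Psmb6, measured 2.02, 2.75 and 3.996 normalized CPM in WT and 42.7, 42.8 and 44.2 in LINC00115 KD, 14.8-fold higher (log2 fold change 3.88, SE 0.12, adjusted p = 4.67e-25). Psmb10, the counterpart of Psmb7, measured 16.9, 20.1 and 21.0 in WT and 69.3, 69.5 and 73.0 in LINC00115 KD, 3.66-fold higher (log2 fold change 1.87, SE 0.067, adjusted p = 4.93e-23). Psmb8, the counterpart of Psmb5, measured 50.4, 52.2 and 55.1 in WT and 202, 195 and 198 in LINC00115 KD, 3.77-fold higher (log2 fold change 1.92, SE 0.044, adjusted p = 6.77e-29). The count ratio of each pair, which is not corrected for gene length and is read only between libraries, moved with them. Psmb9 over Psmb6 was 0.0184, 0.0245 and 0.0352 in WT and 0.508, 0.487 and 0.514 in LINC00115 KD, a 19.3-fold difference of the means. Psmb10 over Psmb7 was 3.74-fold higher, and Psmb8 over Psmb5 was 3.67-fold higher. Since Psmb5 and Psmb7 themselves did not pass, these ratios differ from the changes of Psmb8 and Psmb10 by little.

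The genes of the class I peptide supply list, also chosen with earlier results of these data known, were Tap1, Tap2, Tapbp, Erap1, B2m and Nlrc5. They rose in 6 of 6 cases, against 36.7% of all genes, and 3 of them past a fold change of 2, against 10.2%. Their median log2 fold change was 1.12. The largest change was that of Tap1, a subunit of the peptide transporter (28.1 ± 0.890 to 183 ± 4.25 normalized CPM, SD, n = 3 each; log2 fold change 2.71, SE 0.047, adjusted p = 2.59e-32).

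In 3 other lists of the pathway the counts lay around the share over all genes, 36.7% higher and 36.7% lower, and are given as a description. Of 9 other proteasome components in the table, of 11 listed, 4 rose (44.4%) and 2 fell (22.2%). The largest change was that of Zfand2a, which encodes a stress-induced proteasome-binding protein (131 ± 14.9 to 239 ± 12.8 normalized CPM, SD, n = 3 each; log2 fold change 0.86, adjusted p = 6.54e-17). Adrm1 and Sem1, 19S subunits whose symbols lie outside the rule, were named after their values were seen. Adrm1, a ubiquitin receptor, rose (log2 fold change 0.74, adjusted p = 4.82e-18), and Sem1, a small lid subunit, fell (log2 fold change -0.48, adjusted p = 3.92e-11).

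Of 5 genes of transcriptional control in the table, of 6 listed, 2 rose and 1 fell. Nfe2l1, the factor known to raise proteasome genes together, measured 452 ± 17.4 normalized CPM in WT and 446 ± 5.995 in LINC00115 KD (SD, n = 3 each; log2 fold change -0.02, SE 0.033, adjusted p = 0.615). Its activity depends on processing of the protein, which RNA does not show. Nfe2l2, a factor of the antioxidant response, fell, with 251 ± 5.76 in WT and 189 ± 3.81 in LINC00115 KD (SD, n = 3; log2 fold change -0.41, SE 0.036, adjusted p = 2.39e-12). Ddi2, the protease that processes the Nfe2l1 protein, had the largest change of the list (log2 fold change 0.66, adjusted p = 1.71e-09). Among the 11 genes of ubiquitin supply and shuttles, 10 were tested, of which 4 rose and 3 fell.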

How the data were processed

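RNA-seq counts of 3 LINC00115 KD and 3 WT libraries were used. The authors deposited 1 table of whole-number read counts per gene, without normalization. The methods name HISAT2 with hg19, and the submitters' processing notes name HISAT2, featureCounts, DESeq2 and hg38; the methods and the labels also name different RNA and library kits. The annotation, the use of strand and the handling of reads with several matches are not given in the sources used here, so counts of near-identical copies and overlapping genes may be split.

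Counts were filtered by filterByExpr (minimum count 10, minimum total 15), normalized by TMM and tested in R 4.3.3 with edgeR 4.0.16 (quasi-likelihood, group only), with Benjamini-Hochberg adjustment over all 13497 genes tested. As in the methods of the study, the limit on the adjusted p-value was 0.05 and that on the fold change was 2. The SE is the absolute log2 fold change over the square root of F. Normalized CPM are counts scaled to the TMM-adjusted library total (CPM). The pipeline was also run on simulated data with far fewer changed genes than here, which cannot show how it performs on these data.

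The members and lists were chosen with earlier results of these data known. Named with per-library values were the active-site and activator genes, members past a fold change of 2, and the 2 highest and 2 lowest of each of the 20S core, 19S cap and assembly groups. From other lists the gene with the largest change was named, except where it is not reported here, along with Psmb8, Psmb9, Psmb10, Nfe2l1, Nfe2l2 and Pomp. Alternatives were 3 other scalings, 2 other count filters, each library left out, a block on the replicate number, DESeq2 1.42.0 and a fold change of 1.5.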

Additional observations from a re-analysis of the deposited data

How the results depend on the processing

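Of the 29 members past the threshold, 27 kept their direction and stayed past it under all 13 alternatives, and the other 2 were Psmb2 and Psmb3. No member past the threshold changed direction. The count that rose lay between 19 and 21 and the count that fell between 8 and 10. The number past a fold change of 2 went from 0 to 1 (Psmg3) with DESeq2's size factors, with at least 10 counts in every sample and in DESeq2, was 0 to 1 with each library left out, and became 5 at a fold change over 1.5 (Psme1, Psme2, Psme3, Psmf1 and Psmg3). Under upper quartile scaling the median log2 fold change was -0.0189 for the 20S core, 0.0955 for the 19S cap and 0.808 for PA28. With each library left out it was -0.0194 to 0.0457, 0.117 to 0.158 and 0.798 to 0.873. For members not past the threshold the sign turned in places; the cause was not tested. Upper quartile scaling gave Psma1 -0.037, Psmb5 -0.00084, Psmc5 -0.027, Psmd14 -0.034, Psme4 -0.038 and Psmd9 -0.019. Library size alone gave Psma1 -0.015, Psmc5 -0.0048, Psmd14 -0.012 and Psme4 -0.016. Psma7 was 0.0037 with DESeq2's size factors and 0.0050 in DESeq2. With each library left out, Psma1 ran from -0.021 to 0.032, Psma7 from -0.028 to 0.021, Psmb5 from -0.018 to 0.077, Psmb7 from -0.064 to 0.0048, Psmc5 from -0.012 to 0.045, Psmd14 from -0.028 to 0.039, Psme4 from -0.017 to 0.041 and Psmd9 from -0.0096 to 0.066.

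Libraries with the same replicate number did not clearly deviate together (Pearson r across genes 0.042, -0.015 and -0.021). Libraries with different numbers reached 0.039. Whether the samples were prepared as pairs cannot be told from these values. With the replicate number as a block, 21 members rose, 9 fell and 0 passed a fold change of 2, the added gene being Psmc1 (adjusted p = 0.0449). The lowest count of a tested member in any library was 390, and there were 3 libraries per group.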
